A study of Mus musculus with 21 samples.

Results

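Mice that received MPTP and then irisin were compared with control mice that received neither, to see which transcripts of the midbrain differed from control when irisin had followed the toxin. The comparison took the 6 samples that the sample labels place in the control group and in the group given MPTP and afterwards irisin, out of 21 samples in the series. The 3 control mice of this experiment received ddH2O by intraperitoneal injection for 10 days. The 3 mice given MPTP then irisin received MPTP at 30 mg/kg per day for 5 days and then irisin at 200 μg/kg per day for 5 days, also by intraperitoneal injection. All mice were male C57BL/6 mice of 6 weeks, and total RNA of the midbrain was sequenced. The methods of the study describe nigral tissue that was taken out by hand after perfusion. Values of 2 other groups of the same experiment stand beside the comparison where they bear on it. These were 3 mice given MPTP for 5 days and vehicle for 5 days (MPTP mice), and 3 mice given irisin for 5 days and vehicle for 5 days (irisin mice). A separate experiment with 9 mice gave irisin for 5 days before MPTP for 5 days at the same doses, beside its own control and MPTP mice. Its 3 control mice received vehicle for 10 days, and its 3 MPTP mice received MPTP for 5 days and vehicle for 5 days. Where these mice are meant below, the separate experiment is named. In it MPTP followed irisin, while in the experiment of this comparison MPTP came before irisin. The order of the agents and the time from MPTP to sampling thus cannot be told apart between the experiments. The labels number 3 samples per group and do not say that each came from its own animal, so p-values measure the spread between these samples, which are called mice below.

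MPTP is a small lipophilic toxin that crosses into the brain, where monoamine oxidase B of glial cells turns it into MPP+. The dopamine transporter carries MPP+ into dopaminergic neurons, and there it blocks complex I of the mitochondrial respiratory chain. The dopaminergic neurons of the substantia nigra make dopamine with tyrosine hydroxylase and dopa decarboxylase, load it into vesicles with the vesicular monoamine transporter and take it back up with the dopamine transporter. Irisin is a hormone-like fragment that is cut from the membrane protein FNDC5 and released from exercising muscle, and integrins that hold the αV chain have been described as its receptors. A mouse model of a few days of MPTP shows an acute injury in young animals, and the bulk tissue holds glia, vessels and many kinds of neuron beside the dopaminergic ones.

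Each control mouse had 48.8 to 55.4 M counts (M, mega) on genes and each mouse given MPTP then irisin had 51.2 to 55.5 M. Libraries of the same group correlated with each other at a Spearman rho of 0.977 to 0.982 and libraries of the 2 groups with each other at 0.975 to 0.98, across genes, which are not independent replicates. The 3 control mice stood apart from the 9 other mice of the experiment at 712 of 21922 tested genes (3.25%), in that all 3 lay above or all 3 lay below every mouse of the other 3 groups. Those 9 mice include the irisin mice, which never received MPTP. For this reason values after MPTP then irisin are given below against irisin alone too, and that comparison uses none of the control mice.

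Transcripts that mark dopaminergic neurons were lower after MPTP then irisin than in the control mice, with 18 of 19 members at a negative log2 fold change. Of the 19, 12 were lower at an unadjusted p under 0.05 by edgeR's quasi-likelihood test, where 4.59% of all tested genes were, and 0 were higher, where 4.72% of all tested genes were. None passed the threshold of 0.05 after Benjamini-Hochberg adjustment over all tested genes, a threshold that 0.109% of genes passed, and the smallest adjusted p was 0.144. The median log2 fold change over the 19 was -0.54, beside -0.000718 over all tested genes. The 3 mice of each group did not overlap for 13 of the 19, all lower after MPTP then irisin, and 14.6% of all tested genes did not overlap in one direction or the other. In bulk tissue, fewer cells of a type and less RNA per cell cannot be told apart.

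The promoters of 3 genes that handle dopamine are shown because these genes make, store and take up the transmitter and are among the 12 that were lower at an unadjusted p under 0.05, with 250 bases before and 50 bases after the start of transcription in RefSeq for GRCm38.p6. The capitals mark the cyclic AMP response element (CRE, TGACGTCA, which reads the same on both strands).
Th, chr7:142899946-142900245, minus strand: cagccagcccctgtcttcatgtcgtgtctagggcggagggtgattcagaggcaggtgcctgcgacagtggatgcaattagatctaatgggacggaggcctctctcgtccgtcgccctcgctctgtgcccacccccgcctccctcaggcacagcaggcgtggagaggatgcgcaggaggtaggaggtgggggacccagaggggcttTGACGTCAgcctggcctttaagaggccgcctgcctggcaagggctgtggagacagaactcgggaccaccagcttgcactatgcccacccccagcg
Slc18a2, chr19:59260628-59260927, plus strand: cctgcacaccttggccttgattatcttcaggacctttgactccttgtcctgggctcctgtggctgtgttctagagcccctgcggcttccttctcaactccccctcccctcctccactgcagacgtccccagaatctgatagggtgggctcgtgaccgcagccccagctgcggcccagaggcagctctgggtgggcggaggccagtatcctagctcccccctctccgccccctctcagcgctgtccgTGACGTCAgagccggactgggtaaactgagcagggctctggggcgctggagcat
Slc6a3, chr13:73536497-73536796, plus strand: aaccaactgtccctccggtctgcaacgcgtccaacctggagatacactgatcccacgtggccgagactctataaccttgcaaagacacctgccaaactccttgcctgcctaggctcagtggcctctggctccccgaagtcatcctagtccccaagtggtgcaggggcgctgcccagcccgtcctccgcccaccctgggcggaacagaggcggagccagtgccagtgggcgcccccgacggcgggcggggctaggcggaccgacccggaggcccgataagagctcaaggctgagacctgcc
The element began 45 bases before the start in the promoter of Th and 4 bases before the start in that of Slc18a2, and these letters are not in the window of Slc6a3. It stood in 588 of 32851 promoters of the same length (1.79%) and in 2 of the 15 dopaminergic genes that matched a promoter. A site of the orphan nuclear receptors that include Nurr1 (NBRE, AAAGGTCA on either strand) stood in 495 of 32851 promoters (1.51%) and in 1 of the 15, which was Ddc. A match is a run of letters and does not show that a factor was bound.

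Th encodes tyrosine hydroxylase, the rate-limiting enzyme of dopamine synthesis. It was at 63.3, 59.2 and 50.9 CPM (counts per M of library counts, scaled between libraries by TMM) in the control mice and at 33.8, 34.4 and 36.1 CPM after MPTP then irisin. The groups did not overlap, and the log2 fold change was -0.73 ± 0.14 (SE, n = 3 and 3, adjusted p = 0.144 by edgeR). The irisin mice were at 53.0, 49.4 and 56.8 CPM, also clear of the mice given MPTP then irisin. Against irisin alone the log2 difference was -0.61 with a 95% interval of -0.92 to -0.29 (unadjusted p = 0.00136 and adjusted p = 0.883 by edgeR). MPTP mice were at 31.0, 31.5 and 46.0 CPM, and the log2 difference between MPTP then irisin and MPTP was -0.06 with a 95% interval of -0.37 to 0.26. That interval spans a shift of either sign and does not show that the 2 groups were alike.

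Slc6a3 encodes the dopamine transporter, through which MPP+ enters these neurons. It was at 62.9, 66.2 and 67.4 CPM in the control mice, at 35.1, 24.5 and 19.2 CPM after MPTP then irisin, and at 58.2, 49.9 and 66.1 CPM in the irisin mice. Every mouse given MPTP then irisin lay below every mouse of both groups without MPTP. The log2 fold change was -1.32 ± 0.37 (SE, adjusted p = 0.38 by edgeR) against control and -1.15 with a 95% interval of -1.96 to -0.33 against irisin alone (unadjusted p = 0.0104 by edgeR). MPTP mice spread from 15.3 to 53.5 CPM and overlapped the mice given MPTP then irisin, with a log2 difference of -0.24 and a 95% interval of -1.05 to 0.57.

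The enzyme and the vesicle transporter that act after tyrosine hydroxylase had values in the same direction. Ddc, dopa decarboxylase, was at 94.5, 75.0 and 80.5 CPM in the control mice and at 48.2, 58.4 and 39.7 CPM after MPTP then irisin, a log2 fold change of -0.77 ± 0.25 (SE). Slc18a2, the vesicular monoamine transporter, was at 86.6, 66.8 and 84.5 CPM and at 43.5, 62.1 and 41.9 CPM, a log2 fold change of -0.69 ± 0.24 (SE). Neither group pair overlapped. The irisin mice reached down to 58.8 CPM for Ddc and to 54.6 CPM for Slc18a2, and overlapped the mice given MPTP then irisin for Slc18a2 and not for Ddc. Against irisin alone the unadjusted p by edgeR was 0.0512 for Ddc and 0.0531 for Slc18a2. For both genes, mouse 2 of the control group was the lowest of its group. Mouse 2 of the group given MPTP then irisin was the highest of its own. The same held for Slc6a4, the serotonin transporter, at 36.7 and 55.8 CPM in these 2 mice. The part of serotonergic neurons in the values of Ddc and Slc18a2 was not tested. Gch1, which makes the cofactor of tyrosine hydroxylase, had a log2 fold change of -0.60 ± 0.32 (SE) against control, and its groups overlapped.

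Receptors and surface proteins of these neurons were lower too, with 1 exception. Ret, the signalling receptor for GDNF, was at 123, 118 and 131 CPM in the control mice and at 85.5, 94.8 and 84.6 CPM after MPTP then irisin, a log2 fold change of -0.49 ± 0.10 (SE, adjusted p = 0.144 by edgeR). The irisin mice were at 90.3, 112 and 100.3 CPM, so the control mice lay above all 9 others. Chrna6, a nicotinic receptor subunit of dopaminergic terminals, was at 14.3, 15.99 and 17.6 CPM in the control mice, at 11.2, 8.91 and 9.51 CPM after MPTP then irisin, and at 15.9, 16.5 and 15.3 CPM in the irisin mice. For Chrna6 both groups without MPTP lay above all mice given MPTP then irisin, with a log2 difference of -0.70 ± 0.21 (SE) against control and of -0.69 with a 95% interval of -1.15 to -0.23 against irisin alone. Drd2, the dopamine autoreceptor, had a log2 fold change of -0.38 ± 0.10 (SE), and Slc10a4, a vesicular protein of monoamine and cholinergic neurons, of -0.70 ± 0.18 (SE). Sncg, which encodes γ-synuclein, had a log2 fold change of -0.54 ± 0.12 (SE). For Ret, Sncg, Slc10a4 and Drd2 the control mice lay above all 9 other mice, and the log2 difference of irisin alone from control was -0.30, -0.40, -0.45 and -0.25. Chrnb3, the other nicotinic subunit of the list, was the 1 member with a positive log2 fold change, at 0.04 ± 0.23 (SE).

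Of the enzymes and transcription factors of this lineage, Aldh1a1, a retinal and dopamine aldehyde dehydrogenase of the vulnerable ventral neurons, was at 379, 386 and 400.3 CPM in the control mice and at 289, 346 and 317 CPM after MPTP then irisin. The groups did not overlap, with a log2 fold change of -0.29 ± 0.07 (SE). Lmx1a was at 3.79, 3.31 and 2.59 CPM against 1.30, 1.69 and 1.88 CPM, and Foxa1 at 1.93, 2.45 and 2.81 CPM against 1.38, 1.61 and 0.940 CPM. Both are transcription factors that specify midbrain dopaminergic neurons, and their log2 fold changes were -0.99 ± 0.27 and -0.87 ± 0.31 (SE). Nr4a2, which encodes Nurr1, overlapped between the groups at -0.26 ± 0.17 (SE), and so did En2, Lmx1b and Pitx3 at -0.18, -0.46 and -0.54. En1 was at -0.29 with no overlap and an unadjusted p of 0.103 by edgeR. Pitx3 lay below 1 CPM in all 12 mice, and the 95% interval of its log2 fold change ran from -2.47 to 1.38.

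**Figure D1:**
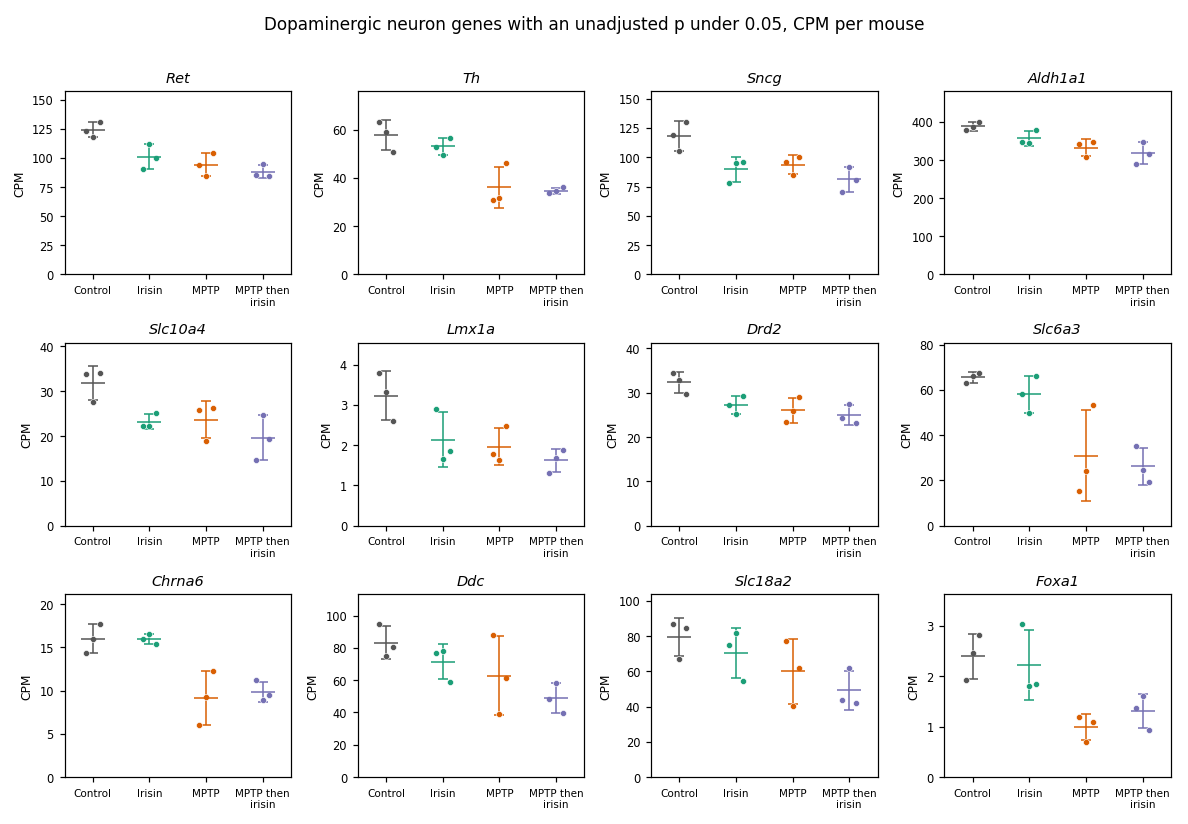
TMM-scaled CPM of 12 transcripts of dopaminergic neurons (y axis, from 0) in the 4 groups of 3 mice (x axis). Points are mice, bars are group means and whiskers are SDs. Th after MPTP then irisin lies at 33.8 to 36.1 CPM, below the control mice at 50.9 to 63.3 CPM and the irisin mice at 49.4 to 56.8 CPM.

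With the irisin mice in place of the control mice, 6 of the 19 were lower after MPTP then irisin at an unadjusted p under 0.05, where 1.90% of all tested genes were. These 6 were Th, Slc6a3, Chrna6, Foxa1, Aldh1a1 and Nr4a2, and the median log2 difference over the 19 was -0.24. The control mice themselves are shared by the next values, which stand side by side for that reason. The MPTP mice were lower than the control mice at 12 of the 19 (4.01% of all tested genes), with a median of -0.41, and the irisin mice at 5 of the 19 (4.44% of all tested genes), with a median of -0.17. Summed over the list, the control mice held 1020 to 1090 CPM, the irisin mice 910 to 946 CPM, the MPTP mice 714 to 892 CPM and the mice given MPTP then irisin 715 to 829 CPM. The sums after MPTP then irisin thus lay below those of both groups without MPTP and within the range of the MPTP mice.

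Against the MPTP mice, 0 of the 19 were lower after MPTP then irisin at an unadjusted p under 0.05, where 1.85% of all tested genes were, and 1 was higher, where 2.06% were. The 1 was Chrnb3, at 11.1, 6.10 and 6.82 CPM after MPTP then irisin and at 4.04, 6.05 and 6.05 CPM in the MPTP mice, a log2 difference of 0.57 with a 95% interval of 0.06 to 1.08 (adjusted p = 1 by edgeR). The mouse at 11.1 CPM stood above the rest. The median log2 difference over the 19 was -0.16.

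**Figure D2:**
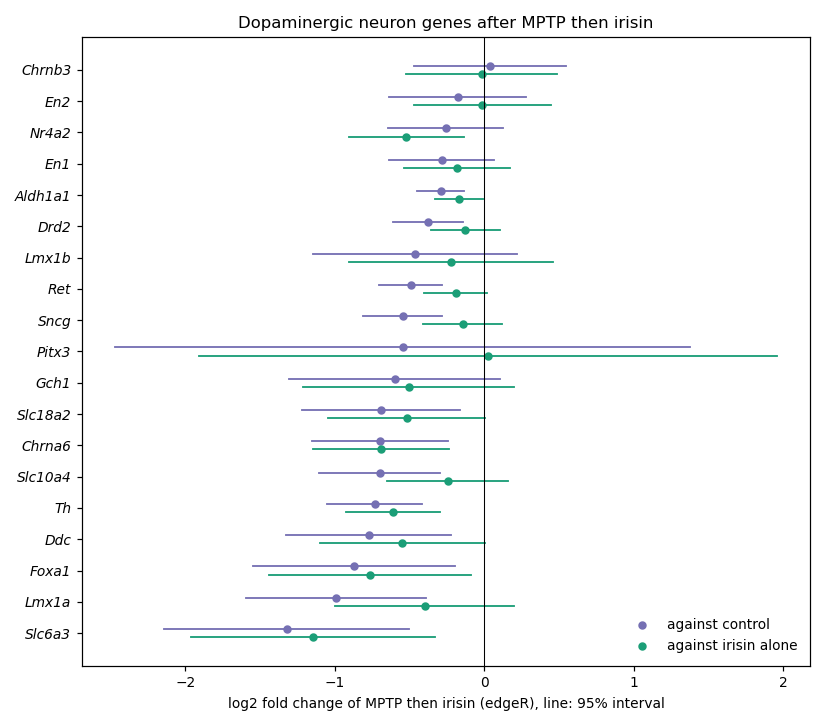
Log2 difference of MPTP then irisin from control and from irisin alone (x axis) for the 19 transcripts of dopaminergic neurons (y axis), with 95% intervals from the edgeR fit. Th and Slc6a3 lie at -0.73 and -1.32 against control and at -0.61 and -1.15 against irisin alone, while Ret and Sncg lie nearer 0 against irisin alone.

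In the separate mice that received irisin before MPTP, 5 of the 19 were lower than in their own control mice at an unadjusted p under 0.05, where 3.63% of 22641 tested genes were. These were Th, Slc6a3, Chrna6, Nr4a2 and Chrnb3. Slc6a3 was at 58.9, 106 and 105 CPM in those control mice and at 28.3, 37.2 and 25.7 CPM after irisin then MPTP, a log2 fold change of -1.57 ± 0.24 (SE, adjusted p = 0.0886 by edgeR). Th had a log2 fold change of -0.80 ± 0.26 (SE) in that experiment. Ddc and Slc18a2 had log2 fold changes of -0.10 and -0.05 there, with SEs of 0.40 and 0.34. The MPTP mice of that experiment, which received no irisin, were lower than the same control mice at 1 of the 19 (2.67% of all tested genes), with a median log2 fold change of 0.0161. The 1 was Slc6a3 at -0.68 ± 0.23 (SE), and Th was at -0.25 ± 0.26 (SE, unadjusted p = 0.36 by edgeR). Of the 18 members that were negative after MPTP then irisin, 15 were negative after irisin then MPTP as well, beside 10975 of 21153 genes (51.9%) that had the same direction in both experiments.

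Markers of other cells in the tissue are given beside these values, as sums over each list. Astrocyte transcripts came to 3410 to 3560 CPM in the control mice and 3380 to 3570 CPM after MPTP then irisin, microglial transcripts to 444 to 486 and 446 to 463 CPM, and oligodendrocyte lineage transcripts to 11400 to 12700 and 11200 to 11900 CPM. None of the 16 astrocyte, 2 of the 18 microglial and 1 of the 16 oligodendrocyte members were lower at an unadjusted p under 0.05. Of all tested genes 4.59% were. Higher were 2 microglial members, where 4.72% of all tested genes were. The 2 higher microglial members were Ctss, a lysosomal protease, at a log2 fold change of 0.15, and Cst7, which was at 0 CPM in the 3 control mice and at 0.554, 0.0981 and 1.16 CPM after MPTP then irisin. Choroid plexus transcripts differed widely between mice of the same group, at 272 to 1560 CPM in the control mice and 195 to 1730 CPM after MPTP then irisin. Serotonergic transcripts, which mark neurons of the raphe, came to 123 to 225 and 72.3 to 179 CPM. The median log2 fold change of the 6 serotonergic members was -0.595, below that of the dopaminergic list, while none of them reached an unadjusted p under 0.05. Slc6a4, the serotonin transporter, was at 75.9, 36.7 and 64.9 CPM in the control mice and 14.7, 55.8 and 15.8 CPM after MPTP then irisin, a log2 fold change of -1.04 ± 0.69 (SE), and Fev, a transcription factor of these neurons, had a log2 fold change of -1.17 ± 0.71 (SE). The groups overlapped for all 6. Defining markers of the midbrain, Th, Slc6a3 and En1, were present in all 6 mice. The part of the serotonergic values, or of how each piece of tissue was cut, in the dopaminergic values was not tested.

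The further lists of cells and regions held few members that differed at an unadjusted p under 0.05, where 4.72% of all tested genes were higher and 4.59% lower. Endothelial transcripts were at 680 to 764 and 656 to 746 CPM and had 1 higher member of 14 (Abcb1a, 0.17), and pericyte and smooth muscle transcripts, at 310 to 322 and 277 to 322 CPM, had 0 of 8. Meningeal fibroblast and blood transcripts had 0 of 11 and 0 of 5 in either direction, at 274 to 291 and 142 to 371 CPM and at 459 to 609 and 383 to 870 CPM. Of transcripts that mark neighbouring brain regions, 0 of 8 for cortex and hippocampus, 0 of 10 for cerebellum and hindbrain, 1 lower of 8 for striatum (Penk, -0.27) and 2 higher of 10 for thalamus and hypothalamus (Oxt and Rora) had an unadjusted p under 0.05. The thalamus and hypothalamus list had a median log2 fold change of 0.52. Oxt, which encodes oxytocin, was at 0 CPM in the control mice and at 1.47, 2.83 and 0.0737 CPM after MPTP then irisin. It was at 2.07 CPM in 1 irisin mouse and at 0 CPM in the other 2.

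Across all 21922 tested genes, 24 were called after MPTP then irisin against control (adjusted p under 0.05 by edgeR), 19 higher and 5 lower, and 2041 had an unadjusted p under 0.05. Of the 24, 19 lost the call in at least 1 alternative fit. Of the 24, 12 are predicted genes whose symbol is Gm and a number. The 3 control mice lay apart from all 9 other mice for 22 of the 24. The 2 exceptions were Lpcat1 and Tmem168. Genes were called for a gap between control mice and the mice given MPTP then irisin, so that count describes them and tests nothing. Against irisin alone, 2 of the 24 had an unadjusted p under 0.05 (Tmem168 and Dnajb1), and 0 were past the threshold after adjustment.

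Wdfy1, a protein of endosomes that takes part in Toll-like receptor signalling, lies at 79702262 to 79776143 on the minus strand of chromosome 1 (GRCm38). It was at 79.7, 74.2 and 73.8 CPM in the control mice and at 21.4, 19.96 and 22.1 CPM after MPTP then irisin. Its log2 fold change was -1.84 ± 0.09 (SE, adjusted p = 9.91e-06 by edgeR). The MPTP mice, at 19.2 to 23.2 CPM, and the irisin mice, at 21.5 to 24.7 CPM, lay with the mice given MPTP then irisin, and only the control mice were high. The control mice of the separate experiment were at 21.0, 3.88 and 33.4 CPM, also below the control mice of this one.

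Several other called genes showed the same layout. Gabra2, the α2 subunit of GABA-A receptors (chromosome 5, 70957597 to 71095849, minus strand), was at 55.0, 67.6 and 72.3 CPM in the control mice and at 31.8, 30.0 and 28.2 CPM after MPTP then irisin, a log2 fold change of -1.11 ± 0.14 (SE, adjusted p = 0.0133 by edgeR). Crb1, a polarity protein of retinal glia and photoreceptors (chromosome 1, 139197056 to 139377077, minus strand), was at 0.642, 0.689 and 0.385 CPM against 4.29, 3.08 and 3.46 CPM, a log2 fold change of 2.66 ± 0.24 (SE, adjusted p = 0.0013 by edgeR). Pisd-ps1, a transcribed pseudogene of phosphatidylserine decarboxylase, was at 60.6, 43.4 and 64.3 CPM against 21.6, 24.7 and 14.3 CPM, a log2 fold change of -1.47 ± 0.21 (SE). The irisin mice were at 27.4 to 37.3 CPM for Gabra2, at 3.57 to 4.70 CPM for Crb1 and at 15.9 to 22.2 CPM for Pisd-ps1, within or next to the range after MPTP then irisin. Reads of a pseudogene can be shared with its parent gene, so the count of Pisd-ps1 is uncertain.

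Wdfy1, Gabra2 and Crb1 are genes known to differ between sublines of C57BL/6 mice, and the labels give the strain as C57BL/6 with no subline. Whether the control mice differed from the others in origin or in treatment cannot be told apart in this design. For 20 of the 23 called genes that were tested in both experiments, the mean of the control mice of the separate experiment lay nearer to the mice given MPTP then irisin than to the control mice of this experiment. These genes were called for their gap from the control mice of this experiment, and the CPM of each experiment were scaled apart. No such count was made over all tested genes, so this one describes the 23 and tests nothing. The direction was the same after irisin then MPTP for 15 of those 23 (65.2%), beside 51.9% of all genes tested in both.

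Among the genes called higher were Zkscan3, a zinc finger repressor of autophagy genes, at 37.6, 45.8 and 35.8 CPM in the control mice and 97.5, 75.2 and 89.5 CPM after MPTP then irisin (log2 fold change 1.14 ± 0.12 SE). Ralgps2, an exchange factor for Ral GTPases, was at 20.6, 23.1 and 21.0 CPM against 44.5, 39.5 and 35.8 CPM (0.89 ± 0.12). Aim2, a sensor of cytosolic DNA, was at 1.53, 1.95 and 1.30 CPM against 5.06, 3.65 and 5.14 CPM (1.53 ± 0.22). These 3 genes did not overlap between the groups, and for each of them the irisin mice lay with the mice given MPTP then irisin. Adss, an enzyme of purine synthesis, was at 75.2, 79.9 and 84.7 CPM against 103, 109 and 104 CPM (0.40 ± 0.06), with the irisin mice at 100.4 to 108 CPM. In the separate experiment, Zkscan3, Ralgps2, Aim2 and Adss had log2 fold changes of 0.89, 0.60, -0.30 and 0.03 after irisin then MPTP. The MPTP mice there, which received no irisin, were at 0.88, 0.67, -0.12 and -0.02 against the same control mice. None of these values passed the threshold after adjustment.

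The mitochondrial tRNA for glycine, mt-Tg, was called higher as well, and its whole gene is shown because it is the 1 called gene of the mitochondrial genome, 68 bases long.
mt-Tg, chrMT:9391-9458, plus strand of GRCm38: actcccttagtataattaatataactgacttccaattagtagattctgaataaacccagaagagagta
It was at 0.331, 0.555 and 0.918 CPM in the control mice and at 3.93, 4.79 and 4.48 CPM after MPTP then irisin, a log2 fold change of 2.86 ± 0.30 (SE, adjusted p = 0.0026 by edgeR). The MPTP mice were at 3.16 to 3.64 CPM and the irisin mice at 3.60 to 4.43 CPM, so that only the control mice were low. It lies next to protein genes on the same polycistronic transcript, so reads can span it and its neighbours.

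A stretch of chromosome 4 held 7 of the 24 called genes, from 42025429 to 42613253 (588 kb). Of the 23 tested genes within it, 14 were higher at an unadjusted p under 0.05, where 4.72% of all tested genes were. The 14 include the 7 called genes that set the bounds of the stretch. Gm10591 (42612121 to 42613253, plus strand), the called gene with the largest fitted fold change, had 0 counts in the 3 control mice together and 351 counts in the 3 mice given MPTP then irisin. With the control group set at a floor of 3 counts over the group, that is at least 112-fold higher. The region holds near-identical gene copies, so counts of its members are uncertain where reads could be split between copies.

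**Figure D3:**
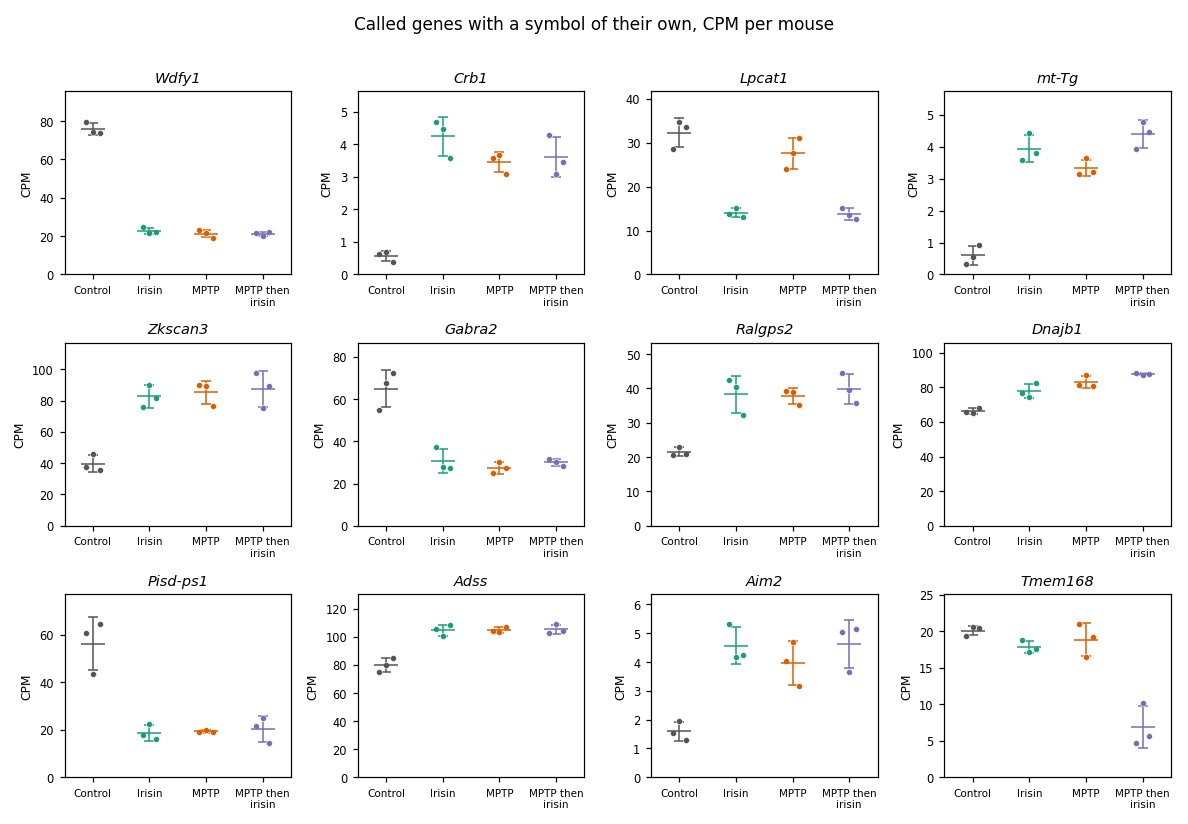
TMM-scaled CPM (y axis, from 0) of the 12 called genes with a symbol of their own in the 4 groups of 3 mice (x axis). Points are mice, bars are group means and whiskers are SDs. For Wdfy1 the control mice lie at 73.8 to 79.7 CPM and the 9 others at 19.2 to 24.7 CPM, and Tmem168 is low only after MPTP then irisin.

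Lpcat1 and Tmem168 were called lower in a different layout. Lpcat1 makes surfactant-type phosphatidylcholine (chromosome 13, 73467197 to 73516422, plus strand). It was at 28.5, 34.8 and 33.5 CPM in the control mice, 24.1, 27.6 and 31.2 CPM in the MPTP mice, 13.9, 15.2 and 13.2 CPM in the irisin mice and 15.2, 13.5 and 12.6 CPM after MPTP then irisin. Both groups that received irisin lay below both groups that did not, without overlap. The log2 difference of MPTP then irisin was -1.23 ± 0.12 (SE, adjusted p = 0.00247) against control and -1.005 ± 0.12 (SE, adjusted p = 0.051) against MPTP by edgeR, and -0.03 with a 95% interval of -0.30 to 0.23 against irisin alone. In the separate experiment it was at 28.5, 11.8 and 23.6 CPM in the control mice, 15.6, 13.2 and 12.1 CPM in the MPTP mice, which received no irisin, and 11.97, 11.7 and 12.9 CPM after irisin then MPTP.

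Tmem168, a membrane protein (chromosome 6, 13580687 to 13608100, minus strand), was at 19.4, 20.5 and 20.4 CPM in the control mice and at 4.74, 10.2 and 5.68 CPM after MPTP then irisin. The MPTP mice were at 20.9, 16.4 and 19.2 CPM and the irisin mice at 18.8, 17.1 and 17.6 CPM, so that the group given both agents lay below all 9 others. Its log2 difference was -1.55 ± 0.23 against control (SE, adjusted p = 0.0288), -1.46 ± 0.23 against MPTP (adjusted p = 0.299) and -1.38 ± 0.23 against irisin alone (adjusted p = 0.638) by edgeR. In the separate experiment single mice of each group were high or low, at 4.15, 17.5 and 4.61 CPM in the control mice and 8.03, 4.42 and 15.2 CPM after irisin then MPTP.

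Just beyond the threshold on the lower side were Gng3, Arhgdig, Ache, Fblim1 and Ciao3, with adjusted p-values of 0.061 to 0.10 by edgeR. Gng3, a neuronal G protein γ subunit, was at 288, 255 and 265 CPM in the control mice and 203, 206 and 222 CPM after MPTP then irisin (log2 fold change -0.36). Ache, acetylcholinesterase, was at 253, 225 and 217 CPM against 164, 163 and 165 CPM (-0.50). Arhgdig, Fblim1 and Ciao3 had log2 fold changes of -0.59, -0.98 and -0.38. For all 5 the control mice lay above all 9 other mice.

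A single gene was called between MPTP then irisin and MPTP (0.00456% of 21922 genes), where 856 had an unadjusted p under 0.05, and 1 gene between MPTP then irisin and irisin alone (0.00456%). They fall outside the naming rule and are named because they are single. Larp1, which binds 5′ terminal oligopyrimidine messages, was at 69.6, 76.1 and 77.6 CPM in the MPTP mice, 172, 167 and 154 CPM after MPTP then irisin and 156, 153 and 163 CPM in the control mice. Its log2 difference from MPTP was 1.15 ± 0.07 (SE, adjusted p = 0.000105 by edgeR) and from control 0.07 ± 0.07. In the separate experiment, 2 mice of the 9 were high for Larp1, at 162 CPM in 1 MPTP mouse and 154 CPM in 1 mouse given irisin then MPTP, and the 7 others lay at 45.5 to 72.7 CPM. Gm20632 was at 3.58, 2.38 and 2.47 CPM in the irisin mice, 8.66, 10.1 and 7.78 CPM after MPTP then irisin and 11.1, 9.65 and 9.97 CPM in the control mice.

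Heat shock chaperones held 1 called gene of 14 (0.109% of all tested genes were called) and 4 members higher at an unadjusted p under 0.05 (4.72% of all tested genes), and the list's median was -0.000795 on the log2 scale. Dnajb1, the co-chaperone that stimulates HSP70, was at 65.6, 65.0 and 68.0 CPM in the control mice and 88.2, 86.9 and 87.7 CPM after MPTP then irisin, and it rose by a log2 fold change of 0.40 ± 0.06 (SE, adjusted p = 0.0204 by edgeR). The call was lost without any 1 of the 6 mice (adjusted p of 0.0597 to 0.102 by edgeR), and with only the 2 groups in the fit (0.158), while the log2 fold change stayed at 0.39 to 0.43. The irisin mice lay between, at 76.95, 74.6 and 82.4 CPM, and the log2 difference from them was 0.17 with a 95% interval of 0.05 to 0.29. The MPTP mice were at 81.1, 87.4 and 80.8 CPM, a log2 fold change of 0.33 against control. From MPTP, the log2 difference of MPTP then irisin was 0.08 with a 95% interval of -0.05 to 0.20. The control mice lay below all 9 other mice for Dnajb1. Hspa1b, an inducible HSP70, was at 9.48, 12.6 and 16.1 CPM against 23.4, 26.2 and 24.8 CPM after MPTP then irisin, a log2 fold change of 0.96 ± 0.23 (SE, adjusted p = 0.304 by edgeR). The irisin mice were at 27.5, 18.3 and 28.6 CPM for Hspa1b and spanned the range after MPTP then irisin. Hspa1a, its near-identical neighbour, had a log2 fold change of 0.90 and can share reads with it, and Chordc1, an HSP90 partner, had one of 0.29.

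In the separate experiment, where irisin came before MPTP, Dnajb1 and Hspa1b were lower than in the control mice. After irisin then MPTP, Dnajb1 was at 46.4, 47.4 and 46.3 CPM against 88.0, 67.2 and 89.9 CPM in the control mice of that experiment, a log2 fold change of -0.81 ± 0.11 (SE, adjusted p = 0.0523 by edgeR). Hspa1b was at 2.06, 3.20 and 2.50 CPM against 14.2, 10.3 and 13.02 CPM, and fell by 2.27 on the log2 scale (adjusted p = 0.012 by edgeR), in a comparison that called 16 genes (0.0707%). Of the 14 members, 8 were lower after irisin then MPTP at an unadjusted p under 0.05 (3.63% of all tested genes). The MPTP mice of that experiment were at 19.0, 18.4 and 24.9 CPM for Hspa1b, above its control mice, with a log2 fold change of 0.73 ± 0.20 (SE, unadjusted p = 0.00499 and adjusted p = 0.769 by edgeR). Among those MPTP mice 4 of the 14 members were higher than in control (3.36% of all tested genes) and 0 lower, and Dnajb1 was at 0.03 ± 0.11 (SE). The difference between the experiments was not tested.

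Immediate early genes, which neurons and vessels switch on within minutes of a stimulus, had 4 of 23 members lower at an unadjusted p under 0.05 after MPTP then irisin against control (4.59% of all tested genes), with a median log2 fold change of -0.23. The 4 were Jun, Sik1, Jund and Btg2. Btg2, an antiproliferative early gene, was at 34.4, 26.5 and 60.2 CPM in the control mice and 21.8, 28.6 and 28.9 CPM after MPTP then irisin, and the groups overlapped. It was at 11.1, 11.2 and 10.4 CPM in the MPTP mice, below all mice given MPTP then irisin, and at 46.7, 64.5 and 71.1 CPM in the irisin mice, above all of them. The log2 difference of MPTP then irisin was -0.61 ± 0.26 against control, 1.28 ± 0.27 against MPTP and -1.20 ± 0.26 against irisin alone (SE, adjusted p = 0.513, 0.843 and 0.785 by edgeR). Sik1, a salt-inducible kinase, followed the same order, with log2 differences of -0.42, 0.46 and -0.69.

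Over the list of early genes, 8 of 23 were higher (2.06% of all tested genes) and 1 lower (1.85%) after MPTP then irisin than after MPTP at an unadjusted p under 0.05. Against irisin alone 9 were lower, where 1.90% of all tested genes were. The MPTP mice were lower than the control mice at 12 of 23, where 4.01% of all tested genes were. Summed over the list, the control mice held 415 to 669 CPM, the MPTP mice 328 to 412 CPM, the irisin mice 535 to 664 CPM and the mice given MPTP then irisin 435 to 492 CPM. The count of 4 against control rested on single mice, since it was 0 without control mouse 3 and 8 without control mouse 2. It was 2 without mouse 1 of the group given MPTP then irisin. In the separate experiment, 18 early genes were lower after irisin then MPTP than in its control mice (3.63% of all tested genes). The median log2 fold change there was -0.95. The MPTP mice of that experiment had 5 early genes higher (3.36%) and 1 lower (2.67%) than control, with a median of 0.14. These counts are at an unadjusted p under 0.05, and the difference between the experiments was not tested.

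**Figure D4:**
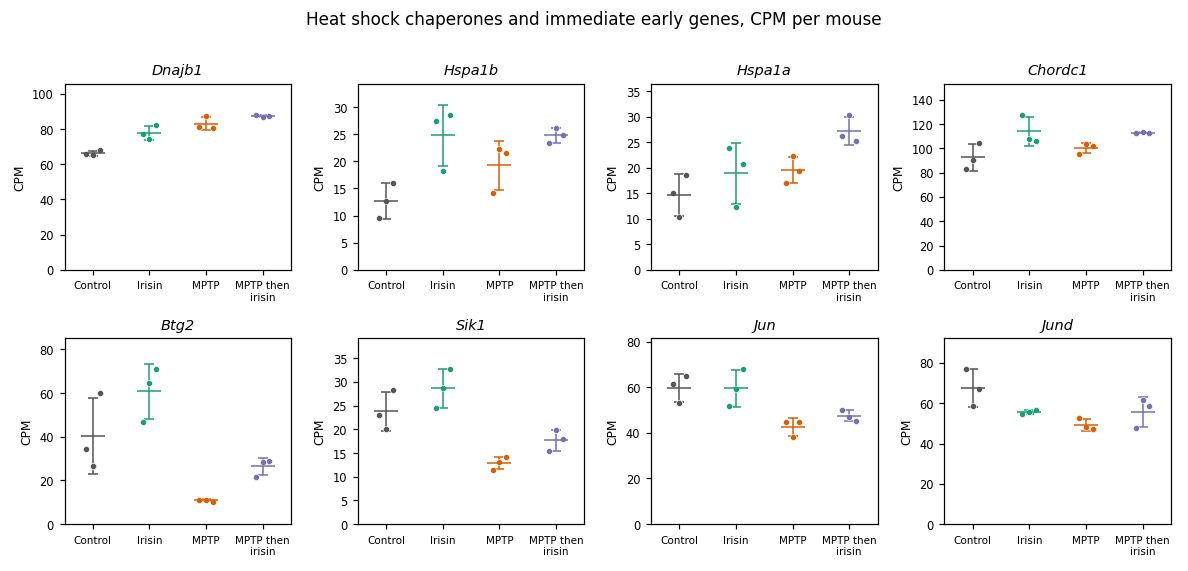
TMM-scaled CPM (y axis, from 0) of 4 chaperone transcripts and 4 immediate early genes in the 4 groups of 3 mice (x axis). Points are mice, bars are group means and whiskers are SDs. Dnajb1 lies at 86.9 to 88.2 CPM after MPTP then irisin and at 65.0 to 68.0 CPM in the control mice, and Btg2 lies at 21.8 to 28.9 CPM between the MPTP mice and the irisin mice.

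Most complex I subunits and mitochondrial transcripts had a negative log2 fold change, and none passed the threshold after adjustment (smallest adjusted p = 0.388 and 0.337 by edgeR). Of 37 nuclear subunits of complex I, the enzyme that MPP+ blocks, 32 had a negative log2 fold change and 9 were lower at an unadjusted p under 0.05 (4.59% of all tested genes), with a median of -0.13. Ndufa8 was at 135, 120.5 and 114 CPM in the control mice and 96.7, 102 and 108 CPM after MPTP then irisin (log2 fold change -0.27 ± 0.08 SE), and Ndufc1 at 39.3, 33.0 and 32.6 CPM against 25.1, 32.1 and 22.6 CPM (-0.39 ± 0.13). Against irisin alone, 0 of the 37 were lower at an unadjusted p under 0.05, where 1.90% of all tested genes were. The count of 9 was 2 without control mouse 1, 3 without mouse 1 of the group given MPTP then irisin, 6 without mouse 2 of either group, and 12 and 11 without mouse 3 of the control group and of the other group.

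Of the 13 protein-coding transcripts of the mitochondrial genome, where the same 4.59% stands for all tested genes, 4 were lower at an unadjusted p under 0.05 (mt-Cytb, mt-Nd4, mt-Co2 and mt-Nd6, log2 fold changes of -0.23, -0.25, -0.21 and -0.27), and the median was -0.15. The MPTP mice were lower than the control mice at 10 of 13, where 4.01% of all tested genes were. Against MPTP, 2 of the 13 were higher after MPTP then irisin (2.06% of all tested genes) and 0 were lower (1.85%). Against irisin alone 0 were lower (1.90%). mt-Cytb, the cytochrome b subunit of complex III, was at 9158, 9927 and 10450 CPM in the control mice, 7934, 8664 and 8636 CPM after MPTP then irisin, 7559, 7453 and 8082 CPM in the MPTP mice and 8542, 8125 and 7904 CPM in the irisin mice. The share of counts on mitochondrial genes was 8.99% ± 0.51 (SD, n = 3) in the control mice and 8.38% ± 0.444 (SD, n = 3) after MPTP then irisin, with p = 0.3 by a two-sided exact permutation test, whose smallest p for 3 against 3 mice is 0.1. The count of 4 lower members was 2 without mouse 1 of the group given MPTP then irisin, 7 without its mouse 3 and 8 without control mouse 1.

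Genes tied to inherited Parkinson disease had 4 of 16 members lower at an unadjusted p under 0.05 (4.59% of all tested genes) and 0 higher, with a median of -0.06. The 4 were 1 without control mouse 1 and 2 without mouse 3 of the group given MPTP then irisin. Uchl1, a neuronal ubiquitin hydrolase, was at 589, 480.1 and 503 CPM in the control mice and 416, 427 and 423 CPM after MPTP then irisin (log2 fold change -0.31 ± 0.07 SE, adjusted p = 0.283 by edgeR). The groups did not overlap for Uchl1. Atp13a2, a lysosomal polyamine transporter, and Chchd2, a mitochondrial protein, had log2 fold changes of -0.28 and -0.23. Against irisin alone, 0 of the 16 were lower at an unadjusted p under 0.05, where 1.90% of all tested genes were. The median log2 difference from irisin alone was -0.03, with Uchl1 at -0.13 and Atp13a2 at -0.015.

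A list of 21 transcripts for proteins that the study assayed or named (the integrin chains Itgav and Itgb5 were named as the receptor and not assayed) held 0 called genes, with log2 fold changes from -0.73 (Th) to 0.61 (Itgav). At an unadjusted p under 0.05, 3 were higher (4.72% of all tested genes) and 4 lower (4.59%). The fusion and fission proteins that were assayed too are not in it and have a list of their own. Further assayed proteins are not in it either, such as COX IV in mice and SIRT1, TFAM and UCP2 in cultured cells. Those higher included Bcl2, an inhibitor of apoptosis, at 0.36, and Tomm20, a mitochondrial import receptor, at 0.12. The 4 lower were Th, Olig2 (-0.24), Tubb3 (-0.23) and Sirt3 (-0.24). Bcl2 was at 21.0, 27.6 and 23.3 CPM in the control mice and 32.8, 29.9 and 29.4 CPM after MPTP then irisin, without overlap. The 95% interval of the log2 fold change held 0 for the 14 others, among them Bdnf, Aif1, Gfap, Bax, Ppargc1a, Nfe2l2, Gabpa, Fndc5, Itgav, Itgb5, Ptk2, Akt1 and Mapk3. Bdnf, the neurotrophin, was at 13.3, 12.9 and 17.9 CPM against 15.6, 17.9 and 14.8 CPM, and Fndc5, the precursor of irisin, had a log2 fold change of -0.08 ± 0.06 (SE).

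**Figure D5:**
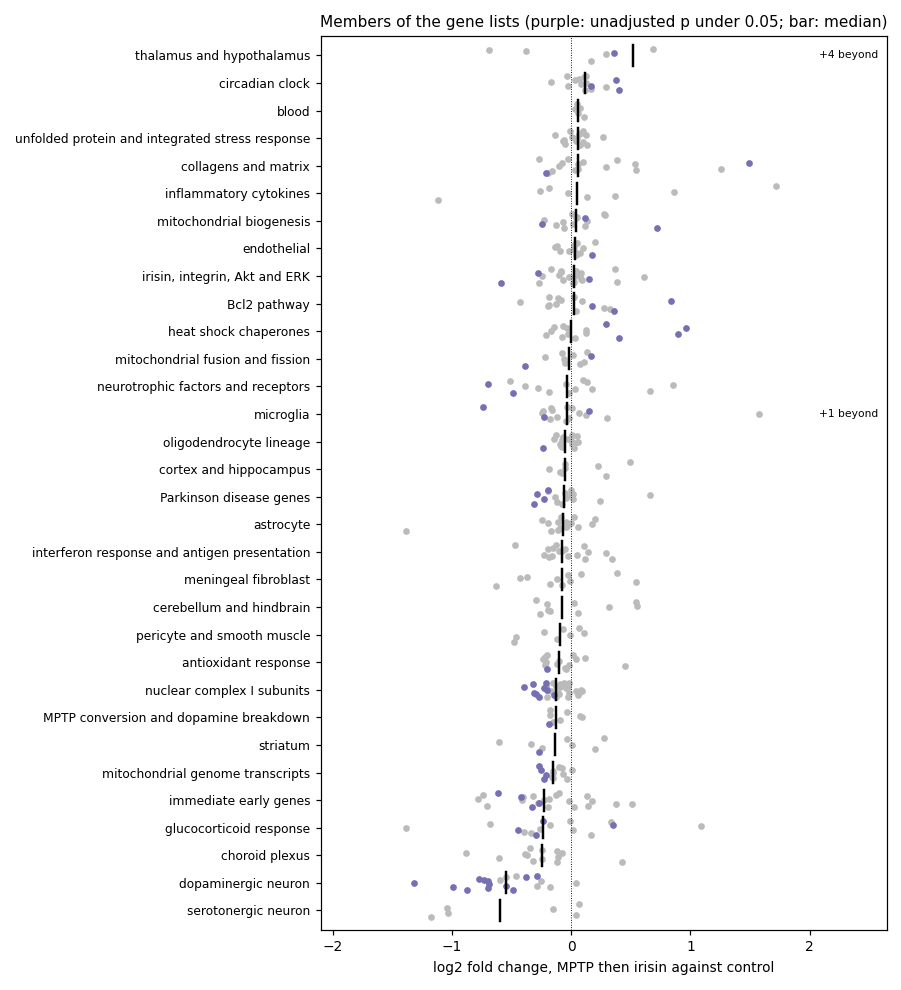
Log2 fold change after MPTP then irisin against control (x axis, drawn from -2 to 2, with 5 members beyond it) for each tested member of 32 gene lists (y axis). Purple points have an unadjusted p under 0.05 by edgeR and bars are list medians. The dopaminergic list has its median at -0.54 and the serotonergic list at -0.595 with 0 of 6 purple points, thalamus and hypothalamus lies at 0.52 and the lists of glia and vessels lie near 0.

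Of the lists of signalling and stress not yet given, the circadian clock had 3 of 15 members higher at an unadjusted p under 0.05, where 4.72% of all tested genes were (Per2 0.40, Per3 0.38 and Bhlhe41 0.17) and the Bcl2 pathway 3 of 15 (Bcl2, Bcl2l1 0.84 and Mcl1 0.17). The circadian count was 1 without mouse 3 of either group, and the Bcl2 pathway count was 1 without control mouse 3. Glucocorticoid response genes had 3 of 15 lower, where 4.59% of all tested genes were, among them Mt2 at -0.29, and 1 higher, Zbtb16 at 0.35. The 3 lower were 1 without mouse 1 of the group given MPTP then irisin or without control mouse 2, and 6 without mouse 2 of the group given MPTP then irisin. Against irisin alone 1 glucocorticoid member was lower, where 1.90% of all tested genes were. In the separate experiment the median of this list against control was positive, at 0.79 after irisin then MPTP and 0.41 in the MPTP mice. The irisin, integrin, Akt and ERK list had 2 of 23 lower (Src -0.59 and Map2k2 -0.28) and 1 higher. Collagens and matrix had 1 lower, Sparc at -0.21, and 1 higher, Tnc at 1.49, of 17. Neurotrophic factors and receptors had 2 of 14 lower, among them Ret, mitochondrial fusion and fission 1 lower (Mief2 -0.39) and 1 higher (Mfn2 0.17) of 10, and mitochondrial biogenesis 1 lower and 2 higher of 15. Antioxidant response genes had 1 of 15 lower (Gsta4 -0.20) and the list of MPTP conversion and dopamine breakdown 1 of 8. The lists of the unfolded protein response, interferon response and inflammatory cytokines had 0 of 16, 0 of 17 and 0 of 8 tested members in either direction, and their medians were 0.06, -0.08 and 0.05.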

How the data were processed

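RNA-seq of the midbrain was analysed for 12 mice of the delayed treatment experiment and, for side by side values, 9 mice of the pre-treatment experiment, with 3 mice per group. Raw counts per gene, which the authors made with featureCounts and deposited, were the unit of all tests. FPKM values, also deposited by the authors, served for 1 filter only. The submitters' processing notes name HISAT, StringTie, edgeR and the build mm9, while the gene coordinates in the files are those of GRCm38. The aligner version, annotation and use of strand are not given in the sources used here, so overlapping antisense genes cannot be told apart.

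Genes were kept by filterByExpr (minimum count 10, minimum total 15) and scaled by TMM. The two-sided quasi-likelihood test of edgeR 4.0.16 (R 4.3.3) was run with all 12 mice in 1 fit and the 9 others in another. The Benjamini-Hochberg adjustment covered every tested gene, and called means an adjusted p under 0.05. The SE is the size of the log2 fold change divided by the square root of the F statistic. The steps were tested on simulated data. No 2 libraries within the control group or within the MPTP then irisin group agreed within sampling noise (chi-square per gene of 39.7 to 61.6). Alternatives were DESeq2 1.42.0, other filters and scaling, fits with only 2 groups, and the replicate number as a block. Each mouse of the control, MPTP and MPTP then irisin groups was left out in turn, for the comparisons that its group entered. The irisin mice and the mice of the pre-treatment experiment were not left out. Irisin alone in place of control was added after seeing the data.

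Named genes were the called genes, with no overlap between the groups, that had the 10 largest changes in each direction. The lower side was filled by the smallest p among genes that did not overlap and had a mean of at least 1 CPM in either group. The 2 members of each list with the smallest p, called members of lists and 21 transcripts for proteins that the study assayed or named were also named. Predicted genes were counted and not named unless called with the largest fold change. All 19 dopaminergic genes, the other called genes and a few single genes were added after their values were seen. Some genes that the rule names are not reported here. The members and the 32 gene lists were chosen with earlier results of these data known.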

Additional observations from a re-analysis of the deposited data

Results flagged for a closer look

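The effect of MPTP with irisin (MPTP then irisin against irisin alone) was compared with its effect without irisin (MPTP against control) in the same edgeR fit, and 9 genes had an adjusted p under 0.05 for the difference, of which 7 were called after MPTP then irisin against control. The log2 difference was -4.35 for Gm15446 and 1.72 for Wdfy1 (both adjusted p = 0.000312 by edgeR), -10.1 for Gm10591 (0.00237), -8.71 for Gm10599 (0.0032), -2.82 for Crb1 (0.0106), -6.74 for Gm17081 (0.0237) and -5.44 for Gm13301 (0.0262). The 3 control mice lay apart from all 9 other mice for each of these 7 genes, so the difference turns on the control mice. Gm15446 was at 0.642, 1.49 and 1.29 CPM in the control mice and at 23.1, 20.9 and 21.8 CPM after MPTP then irisin. Gm10599 had 1 count in the 3 control mice together and 680 after MPTP then irisin, a ratio of 654 with a counting interval of 117 to 25900. Gm10591, Gm10599, Gm17081 and Gm13301 lie in the stretch of chromosome 4 with near-identical gene copies. The predicted genes are named here after their values were seen.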

How the results depend on the processing

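The 24 genes called after MPTP then irisin against control were 24 with median ratio scaling or without a filter and 18 with a mean FPKM of at least 1. They were 10 (5 of them shared) with only the 2 groups in the fit, 148 with DESeq2 (all 24 shared), 465 at an unadjusted p under 0.05 with 2-fold change, and 15 to 26 without 1 mouse. They were 15 without mouse 1 of the group given MPTP then irisin. Irisin alone in place of control gave 1. The single gene called against MPTP became 2 without a filter, 9 with only the 2 groups, 34 with DESeq2, 279 at an unadjusted p with 2-fold change, and 1 to 7 without 1 mouse. DESeq2 called 3 of the 19 dopaminergic genes (Th, Ret and Sncg). The 12 lower dopaminergic genes were 10 to 13 in every alternative but irisin alone in place of control, which gave 6. Of the 24 called genes, 5 (Wdfy1, Gm15446, Gm10591, Gm10599 and Lpcat1) were called in every one of these fits but that with irisin alone, 19 were lost in at least 1 and 0 changed sign. The difference in mitochondrial share, -0.61 percentage points, was -0.73 per counts of other genes. The cause of these shifts was not tested.

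Log2 fold changes near 0 changed sign without 1 mouse. They ranged from -0.269 to 0.202 for Chrnb3, -0.323 to 0.00368 for En2, -0.209 to 0.0638 for Gfap, -0.0522 to 0.0926 for Itgb5, -0.133 to 0.0137 for Mapk3, -0.0165 to 0.057 for Ppargc1a and -0.047 to 0.0286 for Ptk2.

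With the replicate number as a block, 13 genes were called against control, 1 against MPTP and 2 (against 16) after irisin then MPTP. Mice with the same number in the control group and the group given MPTP then irisin did not deviate together (r = 0.0186, -0.0435 and 0.00992), so the numbers were not used as pairs.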

Other observations

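Some transcripts took separate levels in single mice of the same group, and these genes were chosen after their values were seen. Nnt, the mitochondrial transhydrogenase that differs between sublines of C57BL/6 mice, was at 39.8, 6.08 and 44.4 CPM after MPTP then irisin and at 4.47, 42.8 and 43.1 CPM in the irisin mice. It was at 42.6 to 50.6 CPM in the control mice and at 43.6 to 48.9 CPM in the MPTP mice. Bcl2l1, an inhibitor of apoptosis, was at 111, 125 and 50.5 CPM after MPTP then irisin and at 44.8 to 67.4 CPM in the control mice. Src, a kinase downstream of integrins, was at 38.2, 33.6 and 64.5 CPM after MPTP then irisin and at 65.8 to 70.7 CPM in the control mice. Itgav, the αV integrin chain, was at 55.9, 13.9 and 57.5 CPM in the control mice and at 62.7 to 68.6 CPM after MPTP then irisin. For Nnt and Itgav, the mean difference between the groups turned on 1 mouse of a group.

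Tnc, a matrix glycoprotein made by reactive astrocytes, was at 8.72, 9.28 and 26.9 CPM after MPTP then irisin and at 3.45 to 7.58 CPM in the control mice, and the irisin mice were at 16.9, 6.36 and 8.13 CPM. Itgam, a microglial integrin chain, was at 7.86, 7.65 and 7.74 CPM after MPTP then irisin, at 16.5, 8.41 and 13.9 CPM in the control mice and at 15.7 to 19.4 CPM in the irisin mice. Its log2 difference was -0.74 ± 0.31 against control and -1.16 ± 0.32 against irisin alone (SE, both adjusted p-values above 0.05 by edgeR). The MPTP mice were at 17.1, 18.5 and 7.28 CPM for Itgam, so that group held both levels.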
